A study of Mus musculus with 123 samples.

Results

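Sensory neurons of the dorsal root ganglion (DRG) owe their identity to a small set of transcription factors, and the levels of 10 of these genes, taken by symbol from the 24134 genes of the deposited tables, were compared between the sciatic nerve transection (SNT) side and the control side of adult mice. The members were Isl1, Pou4f1, Pou4f2, Pou4f3, Tlx3, Runx1, Runx3, Etv1, Maf and Shox2, and all 10 were present in the tables. Isl1 encodes a LIM homeodomain factor and Pou4f1 (Brn3a) a POU homeodomain factor, and both act in nearly all sensory neurons, where they end the program of the dividing precursor and switch on the program of the postmitotic neuron. Runx1 then directs the nociceptor lineages, in particular the nonpeptidergic nociceptors (NP), while Runx3 and Etv1 act in proprioceptors and Maf and Shox2 in low-threshold mechanoreceptors (LTMRs). Many of these genes stay expressed in the adult ganglion, so their mRNA can be followed after an axon is cut.

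The day-3 cells and 6 pooled libraries came from CAST/Eij male by C57BL/6 female F1 mice, and the day-7 cells from C57BL/6 mice of both sexes. The study describes the F1 mice as female, and the labels of the day-3 cells and pools give no sex. All mice were 2 months old, had the right sciatic nerve sectioned at mid thigh and gave DRG neurons of the cut side (SNT) and of the intact opposite side (control). Neurons of lumbar DRG were picked by hand after dissociation, so the mix of neuron classes was set by the picking. The study kept 106 of 117 sequenced cells, 18 control and 41 SNT at day 3 and 14 control and 33 SNT at day 7, and left out 11 day-3 cells as outliers. SNT cells were split at 500 CPM (counts per 1000000) of Atf3, a transcription factor that axotomized neurons induce. At day 3 there were 30 Atf3-high cells with 951 to 4436 CPM of Atf3 and 11 Atf3-low cells with at most 23 CPM, and at day 7 there were 12 Atf3-high cells with 704 to 1778 CPM and 21 Atf3-low cells with at most 13.9 CPM. Control cells held at most 75.7 CPM of Atf3 at day 3 and 29 CPM at day 7, so no kept cell lay near the limit.

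The labels name no animal for any cell. Each side of a day was therefore treated as 1 sample, and differences between cell groups are given as means ± SD over cells, ranges and counts of cells, with no test. The 3 pooled libraries of a side were parts of 1 lysate of picked neurons, and their p-values measure only the spread between those parts. Day 3 and day 7 differed in strain, sex, read length and picked classes as well as in time, which cannot be told apart. The pooled columns were assigned by their names, and an identifier line inside the same table pairs them with the sides the other way round. Under that line every pooled difference below would change sign. Atf3 was higher in the columns named for the SNT side (log2 change 6.86, edgeR adjusted p = 1.1e-26).

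Library totals ran from 563462 to 839135 counts in the pooled control and from 1148849 to 2003817 in the pooled SNT libraries. Median totals of the kept cells were 862619 (day 3 control), 1323932 (day 3 SNT), 738947 (day 7 control) and 575179 (day 7 SNT). All 7 pan-neuronal markers, among them Tubb3 and Snap25, were found in every group, and their summed level in the kept cells ran from 7365 to 17939 CPM. Summed markers of satellite glia and Schwann cells had medians of 344, 653 and 282 CPM in control, Atf3-high and Atf3-low cells of day 3 and 721, 11.7 and 126 CPM in those of day 7. The summed markers of immune cells had medians between 0 and 16.9 CPM in these groups. The part of these other cell types in the results was not tested.

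The promoters of 4 members are shown because the results turn on them: Isl1 and Pou4f1 were above 10 CPM in all 106 kept cells, and Etv1 and Runx3 set apart a small group of day-7 cells described further on. Each is the stretch from 250 to 11 bases before a RefSeq transcription start in GRCm38.p6, read 5′ to 3′ on the strand of the gene. Isl1 lies at chr13:116309699-116309938 on the minus strand, Pou4f1 at chr14:104468010-104468249 on the minus strand, Etv1 at chr12:38779832-38780071 on the plus strand and Runx3 at chr4:135120395-135120634 on the plus strand. Capitals mark the letters TGTGGT or their complement ACCACA, the core that Runx proteins are known to bind.
Isl1 promoter: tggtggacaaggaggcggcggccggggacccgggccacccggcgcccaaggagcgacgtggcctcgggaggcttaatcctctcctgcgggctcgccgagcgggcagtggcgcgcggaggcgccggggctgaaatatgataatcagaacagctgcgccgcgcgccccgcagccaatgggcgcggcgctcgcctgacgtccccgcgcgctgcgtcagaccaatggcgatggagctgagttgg
Pou4f1 promoter: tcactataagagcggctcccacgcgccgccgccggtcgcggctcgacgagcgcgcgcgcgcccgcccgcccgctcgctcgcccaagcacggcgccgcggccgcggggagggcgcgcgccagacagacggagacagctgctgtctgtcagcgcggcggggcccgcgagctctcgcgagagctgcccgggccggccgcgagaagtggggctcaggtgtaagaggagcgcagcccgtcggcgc
Etv1 promoter: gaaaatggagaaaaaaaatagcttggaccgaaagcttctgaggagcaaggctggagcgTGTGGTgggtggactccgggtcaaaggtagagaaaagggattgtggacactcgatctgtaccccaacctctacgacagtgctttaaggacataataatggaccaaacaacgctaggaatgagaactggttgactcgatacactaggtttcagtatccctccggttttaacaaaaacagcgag
Runx3 promoter: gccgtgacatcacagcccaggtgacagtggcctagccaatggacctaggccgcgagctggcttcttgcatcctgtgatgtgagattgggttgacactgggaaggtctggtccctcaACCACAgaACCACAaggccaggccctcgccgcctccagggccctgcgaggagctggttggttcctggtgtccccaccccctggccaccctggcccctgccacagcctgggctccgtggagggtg
The Isl1 and Pou4f1 stretches were rich in G and C, at 72.1% and 77.9%, against a median of 52.1% over 32851 mouse promoters of the same length. The Etv1 stretch shown was below that median at 46.7%, and the Runx3 stretch shown was above it at 65.4%. Each of these 2 genes had another RefSeq start whose stretch is not shown and held no RUNX letters. For Etv1 it lay at chr12:38783461-38783700 (43.8% G and C) and for Runx3 at chr4:135152295-135152534 (78.3%). Of 11 such stretches belonging to 8 members, 2 held the RUNX letters on either strand, and 13.6% of all promoters did. The match in Etv1 lay 192 bases before the start, and the 2 matches in Runx3 lay 126 and 134 bases before it. The homeodomain core TAATTA (4.77% of all promoters), the AP-1 letters TGACTCA or TGAGTCA (4.35%) and the CRE letters TGACGTCA (1.44%) were found in 0 of the 11 stretches. These are matches of letters, not binding sites, and the Etv1 stretch lies in an intron of a longer annotated Etv1 transcript.

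Per kilobase of annotated exon, Pou4f1 and Isl1 stood above the other members in control neurons. Mean levels at day 3 were 58.8 ± 32 CPM per kb for Pou4f1 and 40.7 ± 17.8 for Isl1 (SD, n = 18 cells). Next came Tlx3 at 11.8 ± 8.50, Runx1 at 8.74 ± 8.64 and Etv1 at 7.86 ± 13.8 CPM per kb. In this order neighbours differed by less than the larger of their SDs over cells, except Isl1 and Tlx3. Pou4f2 (3.63), Pou4f3 (1.91), Shox2 (1.83), Maf (0.925) and Runx3 (0.0125 CPM per kb) were lower on average. In the control cells of day 7, which held more neurofilament heavy chain (Nefh) transcript, Shox2 was the third highest at 13.6 ± 20.8 CPM per kb and Runx1 stood lower in the order, at 1.69 ± 4.36 (SD, n = 14 cells). The 10 genes lie on 9 chromosomes of GRCm38, from Isl1 (chr13:116298281-116309689) and Pou4f1 (chr14:104461676-104467999) to Runx1 (chr16:92601466-92826149), Runx3 (chr4:135120652-135177990) and Etv1 (chr12:38779380-38870484). Pou4f2 (chr8:78433010-78436645) and Maf (chr8:115682942-115707794) share a chromosome, Shox2 lies at chr3:66971727-66981771, and Tlx3 at chr11:33200752-33203589. Runx1, Runx3, Maf and Shox2 each overlap a gene on the opposite strand, and no source says whether strand was used in counting, so reads of the partner cannot be told apart. Pou4f1, Pou4f2 and Pou4f3 are paralogs, between which counting could split reads.

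In the pooled libraries of day 3, 4 of the 10 members were called lower on the SNT side and 0 higher, by edgeR's quasi-likelihood test (Benjamini-Hochberg adjusted p under 0.05, log2 change past 1 in size). Calls in either direction were made for 16% of all 13509 genes tested, 961 of them lower and 1196 higher. In log2 change, 9 of the 10 members lay below 0 with a median of -1.16, against a median of 0.02 over all genes. Runx3, the only member above 0, had an unadjusted p of 0.99 in edgeR, and DESeq2 and limma also called 0 members higher. Fewer cells of a type and less RNA per cell cannot be told apart in such pools.

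Among the factors common to most sensory neurons, Pou4f1 read 110.0, 103.6 and 109.8 CPM in SNT libraries 1 to 3 and 283.3, 221.6 and 268.0 CPM in control libraries 1 to 3. The 2 sides did not overlap, and the control mean was 2.39-fold that of the SNT side (log2 change -1.09, SE 0.16, edgeR with Benjamini-Hochberg adjusted p = 1.4e-06). Isl1 read 108.8, 89.7 and 116.3 CPM on the SNT side against 147.1, 156.1 and 175.7 CPM. Its sides did not overlap either, but the change of -0.43 (SE 0.18) missed the threshold in edgeR (Benjamini-Hochberg adjusted p = 0.071). Tlx3, a homeobox gene of nociceptive and itch-sensing neurons, was near the floor with 1.79, 0 and 1.34 CPM against 5.50, 3.4 and 3.55 CPM, 5.69 counts against 8.87 in total, and was not called (log2 change -1.58, SE 1.07, edgeR adjusted p = 0.31). Pou4f2 (Brn3b) read 1.20, 2.61 and 0 CPM on the SNT side and 16.5, 16.8 and 1.77 CPM in control, and was called lower (log2 change -3.20, SE 0.88, edgeR adjusted p = 0.0057). Control library 3 overlapped the SNT side, the call rests on 5 counts against 27.1, and it was lost when all libraries were thinned to the smallest (log2 change -1.97, edgeR adjusted p = 0.19). Pou4f3 (Brn3c) had 5.98, 7.83 and 5.49 CPM on the SNT side and 5.50, 13.1 and 10.6 CPM in control, with overlapping sides and no call (log2 change -0.47, SE 0.59, edgeR adjusted p = 0.63).

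Runx1, the factor of the nociceptor lineages, was the member with the largest difference among those with more than 30 counts on both sides. It read 12.6, 20.9 and 18.5 CPM in the SNT libraries and 115, 103 and 92.3 CPM in the control libraries. Every control library was above every SNT library, and the control mean was 5.99-fold that of the SNT side (log2 change -2.43, SE 0.26, edgeR with Benjamini-Hochberg adjusted p = 1.1e-09).

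Among the factors of proprioceptors and mechanoreceptors, Shox2 was called lower and Etv1 passed the p-value alone. Shox2 read 16.7, 11.3 and 12 CPM on the SNT side and 39.9, 32.2 and 33.7 CPM in control, without overlap (log2 change -1.23, SE 0.35, edgeR adjusted p = 0.0070). Etv1, an ETS factor, read 47.8, 61.8 and 56.4 CPM against 144, 85.8 and 99.4 CPM, again without overlap (log2 change -0.83, SE 0.22, edgeR adjusted p = 0.0037), and was past a log2 change of 1 when control library 2 was left out (-1.0). Maf read 2.67, 5.22 and 2.99 CPM against 17.9, 7.2 and 3.55 CPM and overlapped (log2 change -1.32, SE 0.71, edgeR adjusted p = 0.18). Runx3 read 5.39, 0.879 and 4.52 CPM against 5.50, 4.77 and 1.77 CPM, with overlapping sides (log2 change 0.01, SE 0.81, edgeR adjusted p = 0.99).

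**Figure D1:**
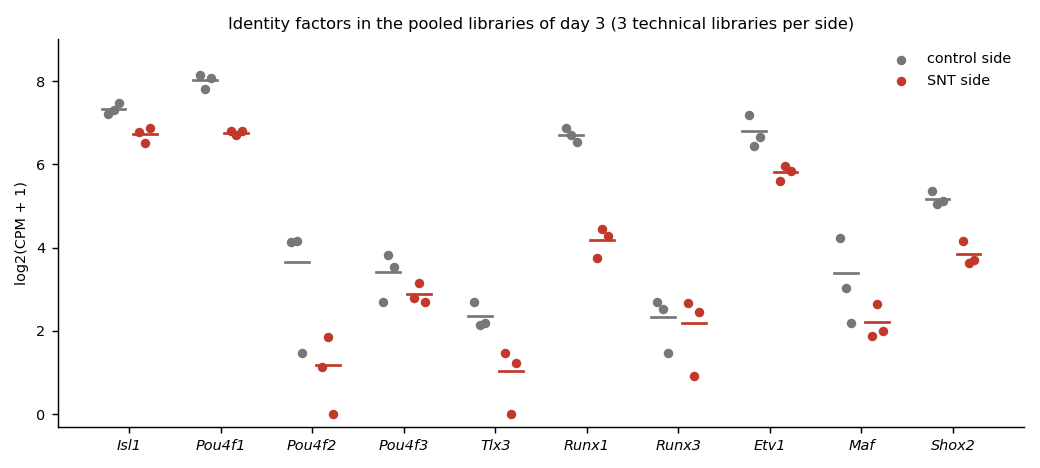
Level of each member in the 6 pooled libraries of day 3, on a log2(CPM + 1) axis, with 1 point per library and a bar at the mean of each side. Pou4f1, Runx1, Isl1, Etv1, Shox2 and Tlx3 did not overlap between the sides, while Pou4f2, Pou4f3, Runx3 and Maf overlapped. Of those without overlap, Isl1, Etv1 and Tlx3 were not called, and Tlx3 held only 5.69 counts on the SNT side and 8.87 in control. The share of all genes without overlap was not counted.

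Markers of neuron classes differed between the same pools, in which 16% of all 13509 genes tested were called in either direction. All 5 NP markers were called lower on the SNT side (median log2 change -4.48), as were 2 of 4 markers of peptidergic nociceptors (PEP) and 4 of 4 of C-fiber LTMRs, while 4 of 7 markers of large myelinated neurons (LM) were called higher (median log2 change 1.16). Of 10 glial markers 3 were called higher and 4 lower, and Csf1r, an immune marker, held 23 counts on the SNT side and 0 in control. Of the 7 neuronal markers 1 was called, Tubb3, which was higher. The part of these differences in the members' values was not tested in the pools.

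Relatives and partners of the members were read from a list of 14 genes, of which 12 were tested, 3 called lower and 1 higher (median log2 change -0.26). For this and the next list, the share called over all 13509 genes was 16% in either direction. The lower ones were Isl2, the closest relative of Isl1 (log2 change -1.42), Etv5, an ETS relative of Etv1 (-1.38), and Ldb2, a LIM-domain binding cofactor (-2.88). Of 30 other sensory transcription factors 22 were tested, 5 were called lower and 1 higher (median -0.54). The lower ones were Prrxl1 (log2 change -1.40), Prdm12, which nociceptors need to form (-1.33), Zfp521 (-1.71), Esrrg (-1.75) and Tshz2 (-1.22). Bcl11a was the higher one, with 16 counts on the SNT side and 0 in control, at least 2.35-fold higher against a floor of 3 counts over the control group.

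Genes that the members are known to act on, or that mark the classes they direct, differed more. Of 24 such genes all were tested, 11 were called lower and 5 higher (median log2 change -0.88), against 16% of all genes in either direction. Mrgprd, an NP receptor gene that depends on Runx1 during development, read 0.598, 2.61 and 0 CPM in the SNT libraries and 1074, 938 and 1022 CPM in control. The other lower genes included Gfra2, a GDNF family receptor (log2 change -4.48), the capsaicin receptor Trpv1 (-3.04), Trpa1 (-2.72), and the sodium channels Scn11a (-1.88) and Scn10a (-1.82). The higher ones were Gfra1 (2.70), the neurotrophin receptor Ntrk3 of proprioceptors and LTMRs (1.62), Slc17a7 (1.43), Nefh (1.19) and the cold receptor Trpm8, which had only 3 counts in control against 36.

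In the kept cells of day 3, the SNT side as a whole differed from control by more than a log2 ratio of 1 in 5 of the 7 members that reached a mean of 10 CPM on either side, 4 lower and 1 higher (log2 ratios here are of mean CPM + 1). Of all 9736 genes at that level 11.9% were past this limit, 591 lower and 567 higher. The lower members were Pou4f2 (log2 ratio -2.55), Runx1 (-1.51), Pou4f1 (-1.32) and Tlx3 (-1.08), the higher one was Shox2 (1.65), and the median of the 7 was -1.08 against -0.05 over all genes. Pou4f2 was counted through 1 control cell at 96.0 CPM, without which the control mean was 6.66 CPM, under the 10 CPM for counting (log2 ratio -1.83), and Tlx3 was within the limit without its highest control cell (-0.94). With the SNT cells split by Atf3, the ratios of Pou4f1, Tlx3 and Etv1 to control were lower in Atf3-high than in Atf3-low cells.

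**Figure D2:**
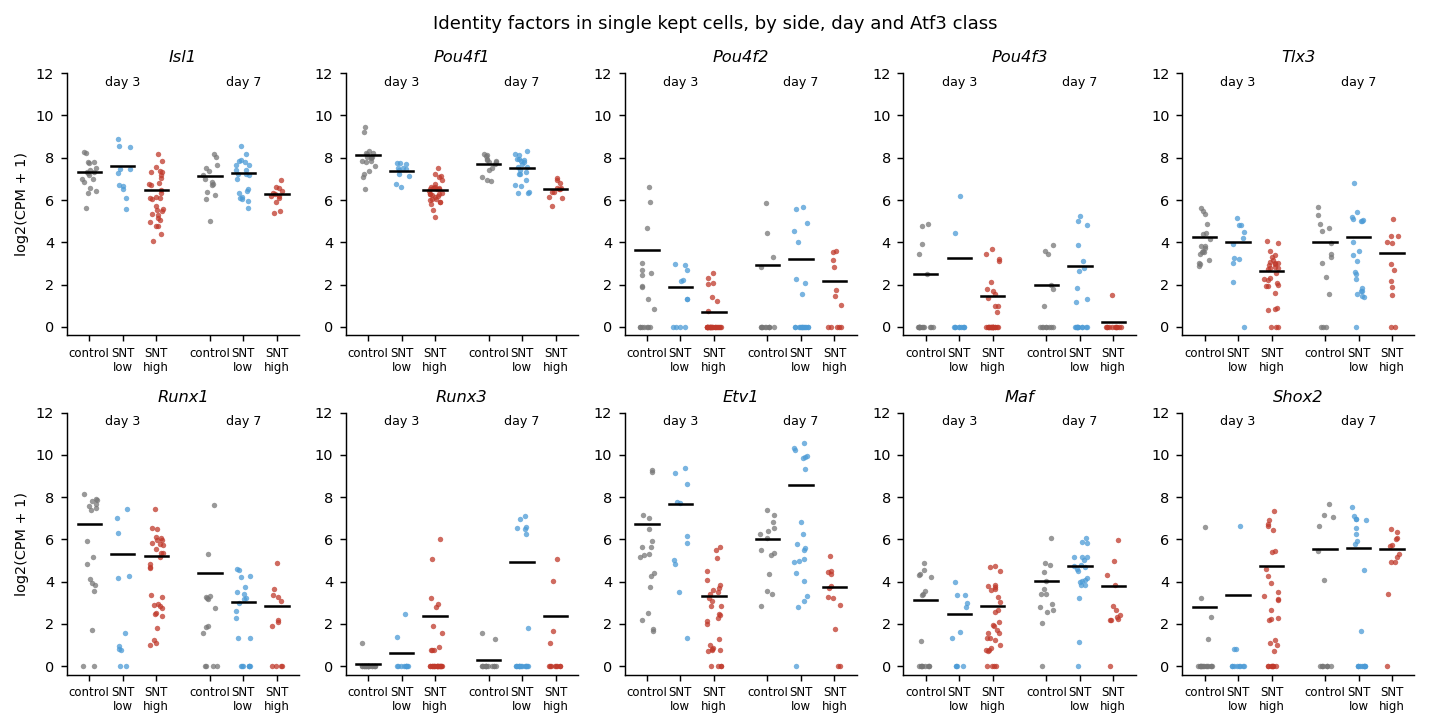
Level of each member in every kept cell, on a log2(CPM + 1) axis, for control, Atf3-high and Atf3-low cells at day 3 and day 7, with 1 point per cell and a bar at log2 of the mean CPM + 1. Pou4f1 and Isl1 were present in every cell, and Etv1 was low in the Atf3-high cells of both days.

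Of the 7 members counted between Atf3-high and control cells of day 3, 5 were lower and 1 was higher by more than a log2 ratio of 1, a limit that 19.3% of 9847 genes passed (1112 lower, 785 higher). Pou4f2 was among the 5 (log2 ratio -2.96, or -2.24 and not counted without the control cell at 96.0 CPM). The median of the 7 was -1.60 against -0.06 over all genes. Pou4f1 ran from 91.1 through a median of 256 to 705 CPM in the 18 control cells, and from 36 through 81.4 to 183 CPM in the 30 Atf3-high cells. All 30 were below the control median and 18 were below every control cell, with means of 87.9 ± 32.1 CPM against 275 ± 150 CPM (SD over cells, log2 ratio -1.63). Atf3-low cells lay between them, from 95.8 through 174 to 218 CPM, and all 11 were below the control median (mean 167 ± 40.9 CPM, log2 ratio to control -0.71).

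Isl1 was also lower in Atf3-high than in control cells, with more overlap. It ran from 47.7 through 157 to 309 CPM in control, from 15.5 through 67.6 to 289 CPM in Atf3-high cells and from 46.8 through 156 to 471 CPM in Atf3-low cells of day 3. In Atf3-high cells 24 of 30 were below the control median and 12 were below every control cell (mean 89.3 ± 67.7 against 161 ± 70.6 CPM, SD over cells, log2 ratio -0.85). The Atf3-low mean was 193 ± 143 CPM. Tlx3 was above 10 CPM in 13 of 18 control cells (72.2%, exact Clopper-Pearson 95% interval 46.5 to 90.3%), in 3 of 30 Atf3-high cells (10.0%, 2.11 to 26.5%) and in 6 of 11 Atf3-low cells (54.5%, 23.4 to 83.3%). With every cell thinned to 250000 counts these numbers were 13, 6 and 5. Intervals cover counting error only.

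Etv1 was the member with the lowest ratio in Atf3-high cells. Control cells of day 3 ran from 2.19 through 37.6 to 613 CPM, and 14 of 18 were above 10 CPM. Atf3-high cells ran from 0 through 4.48 to 49.2 CPM, and 9 of 30 were above 10 CPM. Atf3-low cells ran from 1.52 through 69.9 to 653 CPM, and 10 of 11 were above 10 CPM. The means were 105 ± 184, 9.13 ± 12.7 and 204 ± 235 CPM (SD over cells), which gave a log2 ratio of -3.38 between Atf3-high and control cells and of -4.34 between Atf3-high and Atf3-low cells.

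Between Atf3-high and Atf3-low cells of day 3, 6 members were counted, of which 3 were lower and 1 was higher, a limit that 19.6% of 9753 genes passed (1038 lower, 871 higher). Beside Etv1 the lower ones were Tlx3 (log2 ratio -1.38) and Isl1 (-1.11, or -0.88 without the highest Atf3-low cell), and the higher one was Shox2 (1.38). Pou4f1 was just under the limit (-0.92), with 29 of 30 Atf3-high cells below the Atf3-low median and 23 below every Atf3-low cell. Between Atf3-low and control cells 2 of 6 members were lower, Pou4f2 (-1.80, or -1.08 and not counted without the control cell at 96.0 CPM) and Runx1 (-1.44), and 0 were higher, a limit that 3.67% of 9514 genes passed (222 lower, 127 higher).

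**Figure D3:**
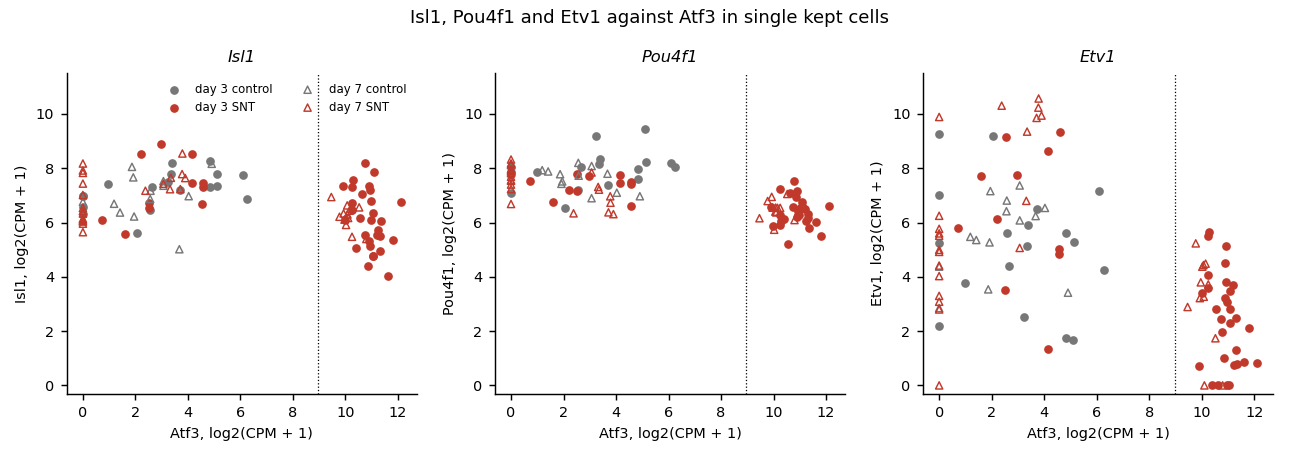
Level of Isl1, Pou4f1 and Etv1 against Atf3 in each kept cell, both on log2(CPM + 1) axes, with filled circles for day 3 and open triangles for day 7, grey for control and red for SNT, and a dotted line at 500 CPM of Atf3. Cells to the right of the line lay lower in Pou4f1 and Etv1 than most cells to its left, and Isl1 overlapped more.

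Runx1 differed between sides of day 3 in both Atf3 classes. It was above 10 CPM in 15 of 18 control cells (0 through 47.7 to 283 CPM), in 17 of 30 Atf3-high cells (1.0 through 26.2 to 173 CPM) and in 5 of 11 Atf3-low cells (0 through 1.95 to 173 CPM), or in 13, 19 and 5 after thinning. The means of 35.7 ± 38.2 CPM in Atf3-high and 38.1 ± 61.0 CPM in Atf3-low cells were nearly alike (log2 ratio -0.09) and both below the control mean of 105 ± 104 CPM. With cells split by Nefh, Atf3-high cells averaged less Runx1 than control below the median alone, by more than the limit, and Atf3-low cells on both sides of it. Among cells below the day's median of Nefh (132 CPM), Runx1 averaged 63.6 CPM in Atf3-high and 177 CPM in control cells (log2 ratio -1.46), and among cells at or above it 14.4 and 15.1 CPM (-0.06). Atf3-low cells averaged 69.3 CPM below the median (6 cells, log2 ratio to control -1.34) and 0.726 CPM at or above it (5 cells, -3.22). Over all kept cells, Runx1 was above 10 CPM in 47, of which 36 also had P2rx3, the purinergic receptor gene of NP neurons, and 36 had Calca, the calcitonin gene-related peptide gene of PEP neurons. Over all kept day-3 cells, P2rx3 was above 10 CPM in 16 of 18 control and 27 of 41 SNT cells, and Calca in 15 and 32. Runx1 was above 10 CPM in 18 of the 20 cells with Mrgprd.

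Within the same split by Nefh, Pou4f1, Isl1, Tlx3 and Etv1 were lower in Atf3-high than in control cells on both sides of the median. Pou4f1 had a log2 ratio between Atf3-high and control cells of -1.53 among cells at or above the Nefh median (17 against 8 cells) and of -1.69 among those below it (13 against 10 cells). For Isl1 the ratios were -0.69 and -1.46, for Tlx3 -0.96 and -1.93, and for Etv1 -2.30 and -4.65. The Etv1 value of -4.65 depends on control cells at 581 and 613 CPM. The other control cells below the Nefh median held at most 48.4 CPM of Etv1. Class markers other than Nefh differed too: mean Calca was 542 CPM in Atf3-high and 4942 CPM in control cells of day 3, and mean Mrgprd was 3.67 and 638 CPM. Mrgprd was called lower and Nefh higher in the pooled SNT libraries too, so a different mix of classes and a changed level within a class cannot be told apart by these markers.

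Shox2 was the member that went the other way in day-3 cells. It was above 10 CPM in 1 of 18 control cells (95.1 CPM, with 14 cells at 0), in 11 of 30 Atf3-high cells (0 through 4.6 to 160 CPM) and in 1 of 11 Atf3-low cells (99.2 CPM), or in 1, 13 and 1 after thinning. The mean was 25.5 ± 43.1 CPM in Atf3-high cells and 6.05 ± 22.3 CPM in control, a log2 ratio of 1.91, whereas the pooled SNT libraries of the same day had less Shox2 than the pooled control. Of 39 kept cells above 10 CPM of Shox2, 35 also had Ntrk2, 30 had Ntrk3 and 7 had Calca. Over all kept day-3 cells, Ntrk2 was above 10 CPM in 11 of 18 control and 32 of 41 SNT cells. Ntrk3 was in 7 and 18 of these cells and Calca in 15 and 32.

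The remaining members were seen in few day-3 cells. Pou4f2 was above 10 CPM in 3 of 18 control cells with a highest value of 96.0 CPM and in 0 of 41 SNT cells (1 after thinning). Taken as 3 cells of the total, a count of 0 allows a share of up to 7.3%, and the exact Clopper-Pearson 95% interval reaches 8.6%. Pou4f3 was above 10 CPM in 3 control and 3 SNT cells, with a highest value of 72.8 CPM in an Atf3-low cell. Runx3 was above 10 CPM in 0 of 18 control cells, which by the same limit allows up to 16.7% (exact interval to 18.5%), and in 2 of 41 SNT cells, both Atf3-high, of which the higher held 64.2 CPM. Maf was above 10 CPM in 6 of 18 control and 9 of 41 SNT cells and had a highest value of 28 CPM. Counting all 10 members, a control cell of day 3 held 5.06 ± 1.47 of them above 10 CPM, an Atf3-high cell 3.7 ± 1.09 and an Atf3-low cell 4.27 ± 1.19 (SD over cells). At day 7 control and Atf3-high cells were alike, at 4.57 ± 1.02 and 4.58 ± 1.24, and Atf3-low cells held 5.57 ± 1.66.

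At day 7 the Atf3-high cells also held less Pou4f1 and Etv1 than control, but these groups differed in class markers. Summed PEP markers had medians of 321 CPM in control, 4.95 CPM in Atf3-high and 66.3 CPM in Atf3-low cells. A different mix of classes and a changed level within a class cannot be told apart here either. Pou4f1 ran from 118 through 220 to 293 CPM in the 14 control cells and from 52.2 through 92.2 to 132 CPM in the 12 Atf3-high cells. Of the 12, 10 were below every control cell, with means of 90.7 ± 22.6 and 209 ± 56.0 CPM (SD over cells, log2 ratio -1.20). The 21 Atf3-low cells, from 78.3 through 185 to 319 CPM, covered the control range. Etv1 ran from 6.21 through 55.0 to 164 CPM in control and from 0 through 10.4 to 36.6 CPM in Atf3-high cells, all 12 below the control median (log2 ratio -2.29). Isl1 averaged 76.0 ± 22.6 CPM in Atf3-high, 139 ± 74.1 CPM in control and 154 ± 84.9 CPM in Atf3-low cells, and 11 of 12 Atf3-high cells were below the control median.

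By count, 3 of the 7 members in this comparison were lower in Atf3-high than in control cells and 0 higher, a limit that 22.9% of 9683 genes passed (1364 lower, 850 higher). The third one was Runx1 (log2 ratio -1.56), which at day 7 rested on 1 control cell at 199 CPM (-0.07 without it): only 2 of 14 control and 8 of 33 SNT cells were above 10 CPM. Against Atf3-low cells 4 of 7 were lower and 0 higher, a limit that 19.9% of 9639 genes passed (1205 lower, 712 higher): Etv1 (log2 ratio -4.83), Runx3 (-2.54), Isl1 (-1.01) and Pou4f1 (-1.01). Without 6 Atf3-low cells high in Pvalb, described below, Runx3 turned to 2.16, with means of 4.21 and 0.166 CPM. Etv1 was then at -2.51, Isl1 at -0.73 and Pou4f1 at -1.26. Without the Atf3-low cell highest in each gene, Isl1 (-0.90) and Pou4f1 (-0.95) were within the limit. All 12 Atf3-high cells were below the Atf3-low median of Isl1, Pou4f1 and Etv1. The mean of Shox2 was 45.2 ± 68.9 CPM in control, 45.4 ± 27 CPM in Atf3-high and 47.6 ± 60.3 CPM in Atf3-low cells. Without the same 6 cells the Atf3-low mean of Shox2 was 18.7 CPM. Its log2 ratio was then 1.24 between Atf3-high and Atf3-low cells and -1.23 between Atf3-low and control cells. Shox2 was above 10 CPM in 10 of 12 Atf3-high, 6 of 14 control and 10 of 21 Atf3-low cells. Maf was above 10 CPM in 18 of 21 Atf3-low cells (85.7%, exact Clopper-Pearson interval 63.7 to 97%), 6 of 14 control and 4 of 12 Atf3-high cells, or in 15, 7 and 3 after thinning. Tlx3 was above 10 CPM in 6 of 14 control, 5 of 12 Atf3-high and 9 of 21 Atf3-low cells, with means of 15.04 ± 15.7, 10.1 ± 10.3 and 18.3 ± 25.3 CPM (SD over cells). Pou4f2 was above 10 CPM in 2, 2 and 5 of these cells, with a highest value of 56.7 CPM in control, and Pou4f3 in 2, 0 and 4, with a highest value of 37.2 CPM in an Atf3-low cell.

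**Figure D4:**
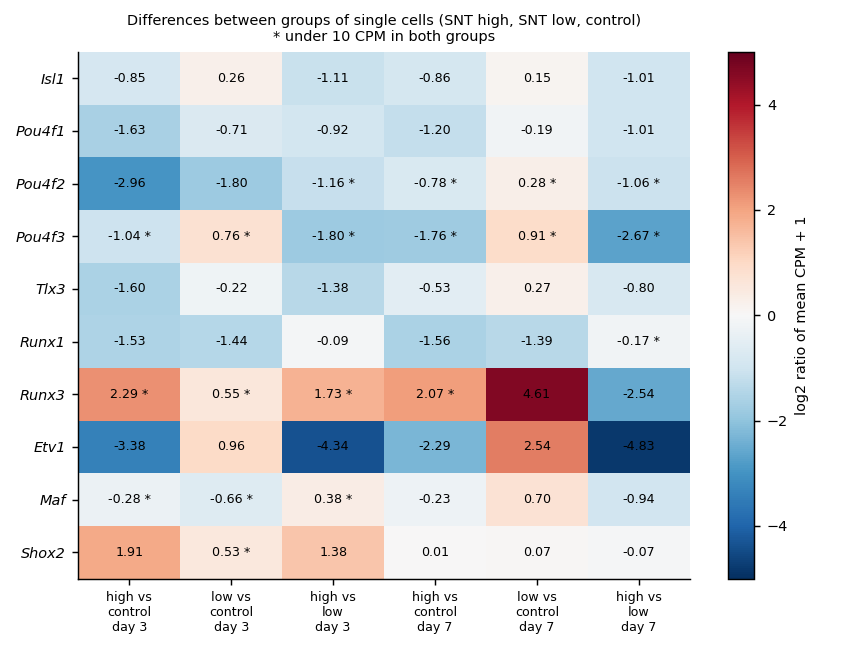
Log2 ratio of mean CPM + 1 for each member in 6 comparisons of cell groups, 3 per day, with colour and printed value giving the ratio and a star where both means were under 10 CPM. Isl1, Pou4f1, Pou4f2, Pou4f3, Tlx3, Runx1 and Etv1 were below 0 wherever Atf3-high cells were compared. Between Atf3-low and control cells of day 7 all members but Pou4f1 and Runx1 were above 0, with Runx3 and Etv1 the highest.

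The SNT cells of day 7 had 2 of 8 counted members higher than control and 1 lower, where 7.66% of 9622 genes were past the limit (428 higher, 309 lower). Atf3-low cells gave the same numbers, with 5.45% of 9606 genes past it (306 higher, 218 lower). The lower member was Runx1, at -1.45 in SNT and -1.39 in Atf3-low cells. Without 1 control cell at 199 CPM these ratios were 0.04 and 0.10, and Runx1 was not counted. The higher members were Runx3 and Etv1. Runx3 was at 0 in 12 of 14 control cells and reached 1.92 CPM there (0 of 14 above 10 CPM, which as 3 cells of the total allows up to 21.4%, with an exact interval to 23.2%), and was above 10 CPM in 6 of 21 Atf3-low cells with a highest value of 136 CPM. Etv1 averaged 380 ± 524 CPM in Atf3-low and 64.4 ± 49.9 CPM in control cells (log2 ratio 2.54), although its Atf3-low median of 47.5 CPM was below the control median of 55.0 CPM.

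Both values came from 6 cells that were picked out after their values were seen. The 6 were the only day-7 cells with 500 CPM or more of Pvalb, the parvalbumin gene of proprioceptors, were all Atf3-low, and were 3 cells of female and 3 of male mice. They held 614 to 937 CPM of Pvalb, 76.3 to 136 CPM of Runx3, 925 to 1518 CPM of Etv1, 58.7 to 185 CPM of Shox2, 184 to 408 CPM of Ntrk3 and 5678 to 8013 CPM of Nefh. Calca was at 0 in all 6. Pou4f1 was low in them, at 78.3 to 124 CPM, and Isl1 was high, at 143 to 372 CPM, while the other 15 Atf3-low cells held 147 to 319 CPM of Pou4f1 and 49.0 to 288 CPM of Isl1. In those 15 cells Runx3 reached at most 2.49 CPM.

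Without the 6 cells, the log2 ratio of the Atf3-low to the control cells was -0.09 for Runx3 and 0.23 for Etv1. No control cell of day 7 was of that kind, so a comparison of the sides within it cannot be made. Over all kept cells of both days, Runx3 was above 10 CPM in 10, of which 10 also had Ntrk3 and Nefh, 9 had Pvalb, 9 had Shox2, 8 had Etv1 and 0 had Calca or P2rx3. Nefh was itself above 10 CPM in nearly all kept day-3 cells, 17 of 18 control and 40 of 41 SNT cells. Of the same cells Ntrk3 was in 7 and 18, Pvalb in 1 and 9, Calca in 15 and 32 and P2rx3 in 16 and 27. Runx1 and Runx3 were both above 10 CPM in 4 cells.

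**Figure D5:**
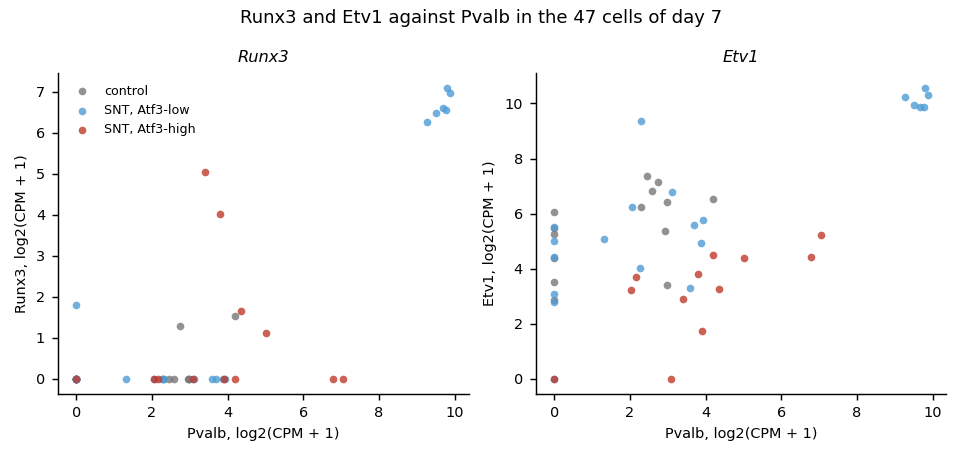
Level of Runx3 and Etv1 against Pvalb in the 47 kept cells of day 7, on log2(CPM + 1) axes, by control, Atf3-high and Atf3-low class. The 6 cells with 500 CPM or more of Pvalb are all Atf3-low and hold 76.3 to 136 CPM of Runx3 and 925 to 1518 CPM of Etv1.

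Within the sexes of day 7, Pou4f1 and Etv1 were lower in Atf3-high than in control and in Atf3-low cells of both. Pou4f1 had a log2 ratio between Atf3-high and control cells of -1.31 in cells of female and -1.17 in cells of male mice, and the log2 ratio of Etv1 between Atf3-high and Atf3-low cells was -5.0 and -5.22. The Atf3-low cells of each sex included 3 of the 6 Pvalb cells with 925 to 1518 CPM of Etv1. Without the 6 cells this Etv1 ratio was -2.51 over both sexes. Between Atf3-low and control cells Pou4f1 was at -0.49 in females and 0.11 in males. For Runx1 that log2 ratio was 0.77 in females (8 against 7 cells) and -2.56 in males (13 against 7 cells), where 1 control cell held 199 CPM. Over both sexes the Runx1 ratio was -1.39, or 0.10 and not counted without that cell.

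In cells, Isl2, Etv5 and Ldb2 were lower in the Atf3-high class too. Between Atf3-high and control cells of day 3, 3 of 9 counted genes were lower and 1 was higher: Etv5 (11.7 against 231 CPM, log2 ratio -4.19), Ldb2 (10.4 against 189 CPM, -4.06) and Isl2 (55.2 against 532 CPM, -3.25) were lower and Runx2 was higher (1.17). Etv5 was below every control cell in 25 of 30 Atf3-high cells and Isl2 in 24 of 30. At day 7 the numbers were 3 lower and 1 higher of 10, with Isl2 at 17.4 against 235 CPM in all 12 Atf3-high cells below every control cell. Of the other sensory transcription factors, 10 of 16 were lower and 1 higher at day 3, with a median log2 ratio of -1.67, and 7 of 17 were lower and 3 higher at day 7. Over all genes counted in these comparisons, 19.3% at day 3 and 22.9% at day 7 were past the limit in either direction. Hoxd1 was the lowest of them at day 3 (log2 ratio -3.88) and Prdm12 at day 7 (-5.07), while Rora was the highest on both days (1.53 and 1.44).

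Class target genes were lower in 11 of 21 and higher in 3 at day 3 (median log2 ratio -2.02), and lower in 10 of 19 and higher in 4 at day 7. The shares over all genes, in either direction, were again 19.3% and 22.9%. Mrgprd was the lowest at day 3 and Scn10a at day 7, with 3.4 against 862 CPM. Gfra1, Pvalb and Spp1 were higher in Atf3-high cells on both days, with Gfra1 at 486 against 172 CPM at day 3 and 1574 against 224 CPM at day 7.

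Genes whose levels ranked most like those of each member were found by Spearman's correlation over the 59 kept day-3 cells among 10694 genes. The cells differ in depth, side and class, so these values are descriptions. Pou4f1 was closest to Rab37 (0.81), Trib2 (0.79) and Prkg1 (0.78), and over the 47 day-7 cells the same pairs gave 0.74, 0.59 and 0.76. Isl1 was closest to Lrrn1 (0.72, and 0.26 at day 7), Fkbp4 (0.68 and 0.58) and Lrrc49 (0.67 and 0.38). Maf was closest to Ryr2 (0.83 and 0.61) and Shox2 to Cbln2 (0.76 and 0.56). The nearest genes of Runx1, Etv1 and Tlx3 were Fam19a4 (0.75), Cebpzos (0.71) and Cdk5r2 (0.72), with 0.02, 0.13 and 0.32 at day 7. Among the members, Pou4f1 correlated with Isl1 (0.60) and Tlx3 (0.58) at day 3, while at day 7 the values were -0.07 and 0.30.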

How the data were processed

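RNA of single neurons picked by hand from DRG of the SNT and control sides, and of pools of such neurons, was sequenced as 50-base single reads (pools and day 3) or 75-base paired reads (day 7). The submitters' processing notes name CASAVA 1.8.2, Bowtie2, RSEM and the build mm9. The deposited values are the expected counts that RSEM gave the authors per gene: the tables are called TPM, but library totals run from 223967 to 2003817 and between 60.7% and 93.6% of the values are whole. The authors removed 11 outlier cells from 1 of the 2 tables, and that table was used for cells. In symbols 27 genes differ between the tables.

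CPM was the value over its column total times 1000000. Pooled libraries, 3 against 3, were rounded to whole counts and fitted with edgeR 4.0.16 (quasi-likelihood, TMM, low genes under a mean of 1 CPM dropped, prior count 0.125, Benjamini-Hochberg) under R 4.3.3. Cells were described with numpy 2.4.6 and pandas 2.3.3, with a pseudocount of 1 CPM, a limit of 10 CPM for presence and for counting a gene, and a log2 ratio beyond 1. On data simulated from the pools, changes were recovered before use. Figures were drawn with matplotlib 3.10.9. Levels per kb used GENCODE gene models of GRCm38, and promoters are those of RefSeq (GRCm38.p6), another build than the counts.

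The members and gene lists were chosen with earlier results of these data known. Named genes were the 10 members, listed genes called in the pools or the largest rise or fall of their list, class markers, and the 3 genes most like each member. Alternatives covered scaling (size factors, library size alone), filters, prior count, thinning, DESeq2 1.42.0, limma 3.58.1, leaving out libraries, a replicate block, and, in cells, pseudocount, Atf3 limit, median, TMM, sex, Nefh and outlier cells, with each cell left out in turn added after seeing the data. The labels call all 6 pools intact tissue by source, and the sides follow their titles. The promoter of Pou4f3 and the values of 2 listed genes are not reported here, and Maf had no promoter entry.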

Additional observations from a re-analysis of the deposited data

Results flagged for a closer look

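The 11 day-3 cells that the study left out as outliers were read apart. They held 8736 to 17371 CPM of glial markers, against at most 2071 CPM in kept cells, and 234 to 3814 CPM of neuronal markers. Maf reached 68.7 CPM in the 4 left-out control cells and 103 CPM in the 7 left-out SNT cells, above the highest kept control cell of day 3 (28 CPM) in 3 of 4 and 6 of 7 cells. The lowest left-out control cell held 13.4 CPM of Maf, far from the other 3. Runx3 reached 19.991 CPM in 1 left-out SNT cell, above all kept control cells of day 3 (at most 1.13 CPM) and far from the other 6. Single cells also stood apart for Shox2 (3.74 CPM among the left-out control cells and 33.4 CPM among the left-out SNT cells), Pou4f2 (4.12 CPM) and Tlx3 (18.0 CPM). Chance marks about 1 in 20 groups in this way where values spread evenly around a centre, which these do not: 3 of 4 left-out control cells were at 0 for Shox2, and 6 of 7 left-out SNT cells were at 0 for Pou4f2 and for Runx3. Median levels in left-out control and SNT cells were 5.97 and 12.4 CPM for Isl1, 11 and 6.18 CPM for Pou4f1 and 56.9 and 85.5 CPM for Etv1.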

How the results depend on the processing

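In the pools, the counts of genes and of members called stayed within 1.5 times under the alternatives run: members lower 3 to 5, genes higher 851 to 1222 and lower 798 to 1264. Leaving out 1 library gave 1067 to 1181 higher and 809 to 969 lower. With library size alone the median log2 change of all genes was -0.14 and 43.7% of calls were higher, against 55.4%. Library numbers did not pair the pools (r of 0.06, -0.02 and -0.01), and the fit with a replicate block gave 1137 higher, 872 lower and 4 members lower. Runx3, near 0, changed sign with library size alone (-0.14), the block (-0.10), thinning (-0.13), DESeq2 (-0.013) and limma (-0.22), and ran from -0.31 to 0.41 with 1 library left out. Pou4f2 lost its call with thinning (-1.97, edgeR adjusted p = 0.19), and Etv1 gained one there (-1.09). Bcl11a, Esrrg, Trpm8, Slc17a8 and Prdm12 lost theirs in at least 1 setting. Isl1 passed the p-value with library size alone (edgeR adjusted p = 0.011). The cause was not tested.

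In cells, 854 of 920 alternative values of single members moved by less than the SD over cells. In all, 87 had the opposite sign, 67 of them for ratios within 1 of 0. For members past the limit, reversed values at day 7 were, for SNT against control, Etv1 -1.32 (medians), -1.19 (Nefh below the median) and -0.43 (without the 6 Pvalb cells), and Runx1 1.17 (Nefh above) and 0.34 (females). For Atf3-low against control they were Etv1 -0.21 (medians) and -0.54 (Nefh below), Runx1 0.21 (medians), 1.20 (Nefh above) and 0.77 (females), and Runx3 -0.088 (without the 6 cells). Runx3 was 2.55 (Nefh below) and 2.16 (without the 6 cells) between Atf3-high and Atf3-low cells, and Runx1 0.89 (Nefh above) between Atf3-high and control cells. That Runx1 value compares 2 Atf3-high with 7 control cells, at means of 5.67 and 2.60 CPM, both under the 10 CPM for counting.

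Counts of members past the limit moved in 45 of 184 cases. With medians over cells, SNT against control had 0 higher at day 3 and 1 at day 7, Atf3-high against control 0 higher at day 3 and 1 at day 7, Atf3-high against Atf3-low 1 higher and 2 lower at day 7, and Atf3-low against control 1 lower at day 3 and 1 higher and 0 lower at day 7. With a pseudocount of 10, SNT had 0 higher and 2 lower at day 3 and 0 lower at day 7, Atf3-high against Atf3-low 0 higher at day 3 and 2 lower at day 7, and Atf3-low against control 1 lower at day 3 and 0 at day 7. Among cells with Nefh above the median, SNT had 1 lower at day 3 and 0 at day 7, Atf3-high 3 lower than control at day 3 and 1 at day 7 and 2 higher than Atf3-low at day 3, and Atf3-low 1 higher than control at day 3 and 0 lower at day 7. Only 2 Atf3-high cells of day 7 lay above that median. With Nefh below it, SNT had 0 higher at day 3 and 2 lower at day 7, Atf3-high 0 higher than either group at day 3 and 1 higher than either and 5 lower than control at day 7, and Atf3-low 1 higher at day 7. Without the 6 Pvalb cells, chosen after seeing the data, 0 were higher in SNT and in Atf3-low than in control, 2 were lower in Atf3-low, and 1 was higher in Atf3-high than in Atf3-low. With the highest cell of each group left out, Atf3-low had 1 higher and 1 lower at day 3, and 0 were lower in SNT and in Atf3-low at day 7. Females had 0 lower in SNT and in Atf3-low, and males 5 lower in Atf3-high than in control. Outlier cells included gave 2 lower in SNT at day 3, TMM over cells 2 lower between the Atf3 classes at day 7, and summed counts 1 higher in Atf3-low at day 3.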

Other observations

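Etv1 was above 10 CPM in 68 of the 106 kept cells, Runx1 in 47, Maf in 43, Tlx3 in 42, Shox2 in 39, Pou4f2 and Pou4f3 in 12 each and Runx3 in 10. All 12 Pou4f2 cells also had Ntrk2, and 11 had Ntrk3. Over all kept day-3 cells, Ntrk2 was above 10 CPM in 11 of 18 control and 32 of 41 SNT cells, and Ntrk3 in 7 and 18. Of the 43 Maf cells 35 also had Etv1 and 1 had Mrgprd. Runx1 was above 10 CPM in 8 of the 9 cells with Th, the tyrosine hydroxylase gene of C-fiber LTMRs.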
